A study of Mus musculus with 2 samples.

Results

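Troponin genes were followed across the cells of the adult mouse pituitary, with most attention to corticotropes, the anterior lobe cells that make adrenocorticotropic hormone from the Pomc precursor. Members were the genes Tnnt1, Tnni3, Tnnt2, Tnni1 and Tnnc1, matched by symbol, 5 of the 28693 genes in the deposited matrix and 5 of the 8 mouse troponin genes. They were named with their measured pattern in view, so their levels, shares and co-detection are descriptions with no test. Test results are given for other genes only.

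The study profiled dispersed pituitary cells of C57BL/6 males aged 7 weeks by 10x Genomics 3′ droplet sequencing, and all samples belong to 1 group. Each of the 2 libraries pooled 3 glands after 4 h of enzyme digestion, so a value per library is a pool and not an animal. The libraries hold 6546 and 7117 barcodes with medians of 10128 and 10636 UMIs (unique molecular identifiers, 1 per captured RNA molecule), and 6011 and 6523 cells were used. A total of 54 barcode sequences occur in both libraries.

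Troponin is a complex of 3 subunits on the thin filament of striated muscle. Troponin C binds calcium, troponin I holds the filament off until calcium arrives, and troponin T ties the complex to tropomyosin. Each subunit has a gene for each kind of muscle: Tnnt1 encodes the slow skeletal and Tnnt2 the cardiac troponin T, Tnni1 the slow skeletal and Tnni3 the cardiac troponin I, and Tnnc1 the troponin C shared by slow skeletal and cardiac muscle. The other 3 genes, Tnnc2, Tnni2 and Tnnt3, encode the fast skeletal forms. Corticotropes are endocrine cells and are not known for a sarcomere.

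In the mouse genome (mm10, GENCODE M21) Tnnt1 and Tnni3 are neighbours. Tnnt1 occupies chromosome 7 from 4504570 to 4516382 and Tnni3 from 4518305 to 4524229, both on the minus strand, with a gap of 1922 bases from the end of Tnni3 to the start of Tnnt1. Tnni1 (chromosome 1, 135779434 to 135810989) and Tnnt2 (chromosome 1, 135836354 to 135852260) form a second pair on the plus strand with a gap of 25364 bases. Tnnc1 stands on chromosome 14 from 31208312 to 31211729 on the plus strand. It lies inside Nisch, a gene of the minus strand with 205 ± 2.43 CPM (SD, n = 2) in corticotropes, and the sources used here do not say whether the counting used strand. The 5′ end of Tnni3 overlaps the 3′ end of Dnaaf3 by 1297 bases on the same strand.

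The stretches before the starts of Tnnt1 and Tnni3 are shown because these are the members with most UMIs in corticotropes. Both were read 5′ to 3′ on the minus strand from RefSeq's promoter windows (GRCm38.p6), without the bases that lie in an annotated exon of any transcript. Capitals mark matches to the E-box CANNTG and to the GC box GGGCGG. The Tnnt1 stretch is chr7:4516005-4516225, 221 bases ending 30 bases before the RefSeq start, and the Tnni3 stretch is chr7:4522529-4522694, the 166 bases up to the start.
Tnnt1: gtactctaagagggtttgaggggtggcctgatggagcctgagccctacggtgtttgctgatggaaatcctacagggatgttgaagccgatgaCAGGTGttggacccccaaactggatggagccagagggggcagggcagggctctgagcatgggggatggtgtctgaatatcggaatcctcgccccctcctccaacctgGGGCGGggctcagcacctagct
Tnni3: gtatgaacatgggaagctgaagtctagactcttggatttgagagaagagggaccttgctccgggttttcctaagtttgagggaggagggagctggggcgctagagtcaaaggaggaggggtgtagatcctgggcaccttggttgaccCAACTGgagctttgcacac

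The search covered both strands of the 250 bases before each start, called windows here, with bases in annotated exons included. Motifs were the TATA box TATAAA, the E-box CANNTG, the T-box site TCACACC that Tbx19 can bind, and the NBRE site AAAGGTCA of Nr4a factors. The cyclic AMP response element TGACGTCA, its shorter core TGACG, which overlaps it, the GC box GGGCGG, and the CArG box and MEF2 site of muscle promoters were also searched. Each of these 2 windows holds 1 CANNTG, which 66.2% of 32851 promoter windows of this length hold. Tnnt1 also has GGGCGG (32.7% of windows), TATAAA at 30 to 25 bases before the start (12.4%) and TGACG (17.8%), and Tnni3 has TCACACC on its minus strand (3.33%). The TATAAA and TGACG of Tnnt1 and the TCACACC of Tnni3 overlap annotated exons, so they are not marked in the stretches above. Neither window holds a match to TGACGTCA (1.55%), AAAGGTCA (1.34%), the CArG box (1.47%) or the MEF2 site (2.92%). A match or its absence describes these letters only. All 5 members matched RefSeq windows, and the searched bases of Tnnt2, Tnni1 and Tnnc1 held no motif of the list other than CANNTG.

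Cells were grouped by clustering on marker genes that include no troponin. The corticotrope-like cluster held 207 and 244 cells, 3.44% and 3.74% of each library, and 92.9% of its cells drew at least 1% of their UMIs from Pomc. Its defining genes fit the name: Tbx19, the T-box factor that drives Pomc, was seen in 70.5% of cells and Crhr1, the receptor for corticotropin-releasing hormone, in 65.4%. Among its markers, Crhbp was at 0 UMIs. Melanotropes are the Pomc cells of the intermediate lobe, which cut the precursor further with Pcsk2. In the melanotrope-like cluster (116 and 146 cells) Pcsk2 was seen in 98.1% of cells and Pax7, the factor that specifies melanotropes, in 37.8%, against 2.22% and 0 of corticotrope-like cells. A further Pomc-rich cluster of 94 and 106 cells stayed unnamed, because 58.5% of its cells reached 1% Pomc and its lactotrope markers summed to 131333 and 82579 CPM against 6434 and 3244 in corticotropes. These 3 groups and their troponin UMIs are drawn on the authors' deposited t-SNE map.

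**Figure D1:**
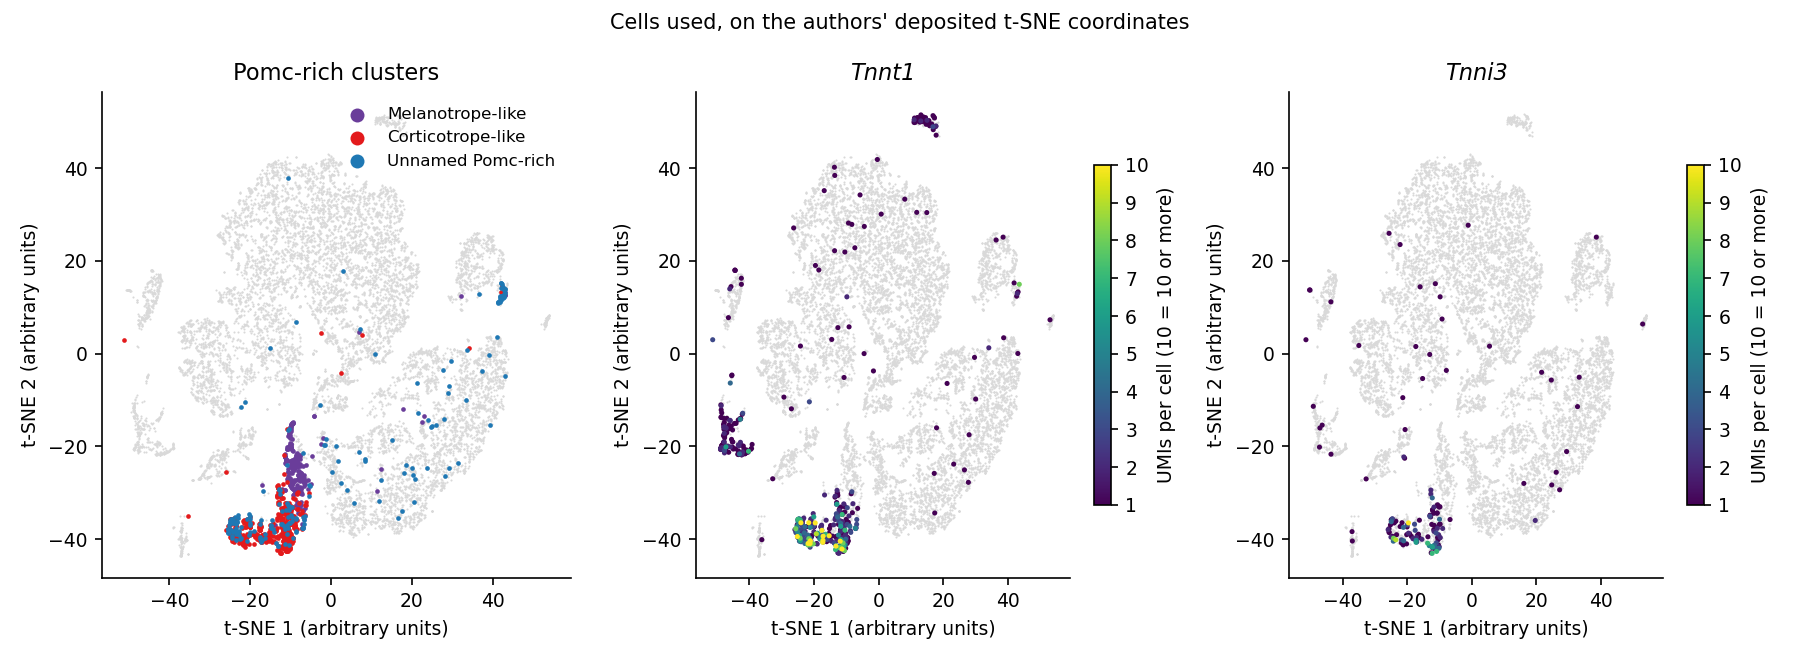
Each point is a cell at the authors' deposited t-SNE coordinates (arbitrary units); the left panel colours the 3 Pomc-rich clusters and the other panels colour cells by their UMIs of Tnnt1 or Tnni3, up to 10 or more. Cells with many Tnnt1 or Tnni3 UMIs lie where corticotrope-like and unnamed Pomc-rich cells lie.

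Tnnt1, the slow skeletal troponin T, was highest in corticotropes. Its level there was 256 CPM in library 1 and 318 in library 2 (mean 287 ± 43.8, SD, n = 2), from 323 and 439 UMIs. CPM values are UMI counts relative to the scaled total of all UMIs of a cell class in 1 library. Levels are not divided by gene length, so they are compared between cell types for 1 gene and not between genes. The unnamed Pomc-rich cluster followed with 133 and 249 CPM, below corticotropes in each library. Fibroblast-like cells came next with 50.9 and 56.3 CPM, and stem-like cells after them with 27.6 and 37.0 CPM. These 4 groups did not overlap in their library values.

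In the other classes Tnnt1 was at or near the floor. Melanotrope-like cells had 5.27 and 5.40 CPM from 4 and 5 UMIs, 53.8-fold below corticotropes. Endothelial-like cells had 7.38 and 2.68 CPM, pituicyte-like cells 0 and 16.6, and macrophage-like cells 5.61 and 0 from 1 UMI, so these 4 neighbours in the order overlap. Gonadotrope-like cells (3.35 and 0.333 CPM), lactotrope-like cells (0.842 and 0.915) and somatotrope-like cells (0.975 and 0.796) were 156-fold, 327-fold and 324-fold below corticotropes. Cycling cells had no Tnnt1 UMI, which puts them at least 226-fold lower when 3 UMIs over both libraries together are allowed. Thyrotrope-like cells, only 11 and 31, also had none.

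Tnni3, the cardiac troponin I, was found mainly in the same clusters. Corticotropes had 68.1 and 67.3 CPM (67.7 ± 0.570, SD, n = 2), from 86 and 93 UMIs. The unnamed Pomc-rich cluster had 42.4 and 24.4 CPM, below both corticotrope values. In melanotropes Tnni3 had no UMI in either library, at least 38.1-fold lower than in corticotropes with 3 UMIs over both libraries together allowed. Fibroblast-like cells had none either (at least 18.5-fold lower on the same allowance), while their Tnnt1 count was 44 UMIs. Somatotropes (0.683 and 0.328 CPM) and lactotropes (0.526 and 0.748) were 134-fold and 106-fold lower, and stem-like cells had 0.412 and 1.63 CPM. So the fibroblast-like and stem-like cells that held Tnnt1 held little or no Tnni3.

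The other members were low throughout and did not single out corticotropes. Tnnt2, the cardiac troponin T, gave 2 and 1 UMIs in corticotropes, and somatotropes held 80.6% and 83.3% of its 36 and 42 UMIs. At 1.41 and 1.64 CPM its somatotrope level overlapped the 1.58 and 0.724 CPM of corticotropes. Tnni1, the slow skeletal troponin I, had no UMI in corticotropes and only 13 and 10 in all cells used, 11 and 7 of them in somatotropes.

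Tnnc1, the troponin C partner of both forms, was thinly spread. Corticotropes had 4.75 and 10.1 CPM from 6 and 14 UMIs, lactotropes 6.31 and 5.57, melanotropes 7.90 and 2.16 and somatotropes 3.95 and 4.03. The corticotrope range overlaps those of lactotropes and melanotropes, and both somatotrope values lie just below it. Most of its 167 and 191 UMIs came from the 2 large classes, somatotropes (48.5% and 45.0%) and lactotropes (35.9% and 35.1%). Of the fast skeletal genes, Tnni2 had 44 and 46 UMIs in lactotropes (4.63 and 3.83 CPM), its highest level in macrophage-like cells (16.8 and 54.2 CPM from 3 and 13 UMIs), and 2.38 and 1.45 CPM in corticotropes. Tnnc2 and Tnnt3 had 5 and 3 UMIs in all. Corticotropes thus carried transcripts of a slow skeletal T and a cardiac I with only traces of any troponin C.

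**Figure D2:**
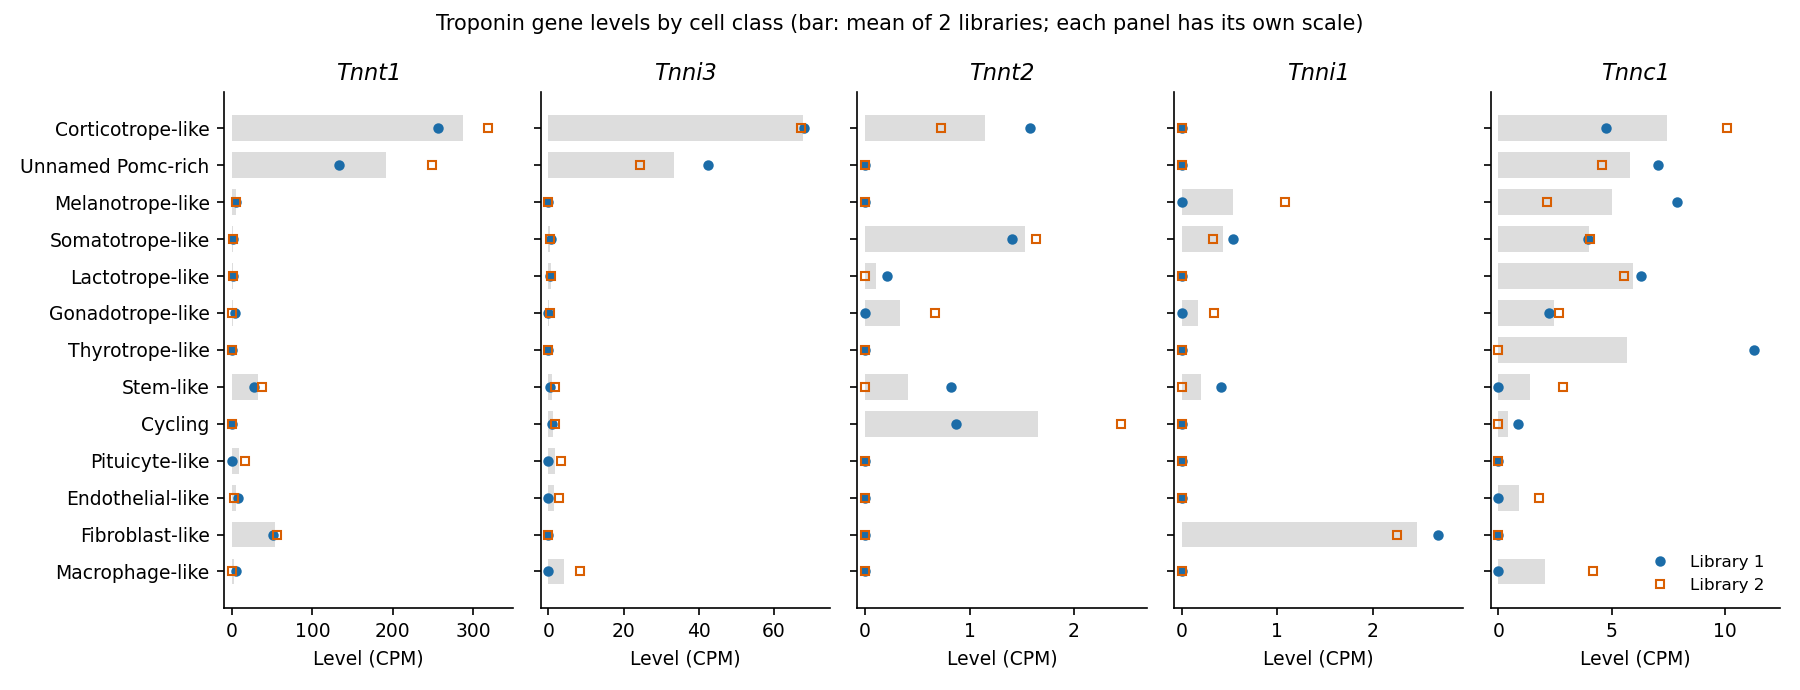
Level of each member (CPM) by cell class, with points for library 1 and library 2 and a bar for their mean; each panel has its own scale starting at 0. Tnnt1 (256 and 318 CPM) and Tnni3 (68.1 and 67.3 CPM) are highest in corticotrope-like cells, while Tnnt2, Tnni1 and Tnnc1 stay at or below 11.3 CPM in every class.

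By cell, a Tnnt1 UMI was seen in 100 of 207 corticotropes of library 1 (48.3%, exact binomial 95% interval 41.3 to 55.3) and 121 of 244 of library 2 (49.6%, 43.2 to 56.0). Intervals cover counting error only. Endothelial-like cells, which should lack troponin and had much the same depth (medians of 4613 and 4401 UMIs against 4454 and 4278), gave 4.65% and 2.00%. This was taken as the background, and melanotropes lay below it with 2.59% and 1.37%. It is not the lowest share seen: somatotropes had 0.551% and 0.434% and lactotropes 0.557% and 0.397%, although both were deeper. Melanotropes lay above these 2 classes, so a share below the endothelial-like one does not show that Tnnt1 is absent. The share in stem-like cells was 31.2% and 38.0% and in fibroblast-like cells 23.1% and 28%, but stem-like cells were deeper, with medians of 9018.5 and 9265 UMIs.

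With every cell thinned to 1000 UMIs, the Tnnt1 share was 16.9% and 23.8% in corticotropes (20.3 ± 4.85, SD, n = 2). It was 10.8% and 11% in fibroblast-like, 3.12% and 6.13% in stem-like and 1.55% and 0 in endothelial-like cells. At equal depth corticotropes therefore stood above fibroblast-like and these above stem-like cells, the order seen in CPM. No cell of the data set fell below 1000 UMIs in these classes.

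A Tnni3 UMI was seen in 39 of 207 corticotropes (18.8%, 13.8 to 24.8) and 41 of 244 (16.8%, 12.3 to 22.1), and after thinning in 7.73% and 5.33%. Endothelial-like cells gave 0 of 129 (which allows a share of up to 2.33%) and 2.00% unthinned, and melanotropes 0 of 116 (up to 2.59%) and 0 of 146 (up to 2.05%). The Tnnc1 share in corticotropes was 2.90% and 5.33%, against 0 and 1.33% in endothelial-like cells. Its intervals in corticotropes (1.07 to 6.20 and 2.87 to 8.94) overlap those of endothelial-like cells in both libraries. Tnnt2 was seen in 0.966% and 0.410% of corticotropes, with 1 UMI in each such cell.

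**Figure D3:**
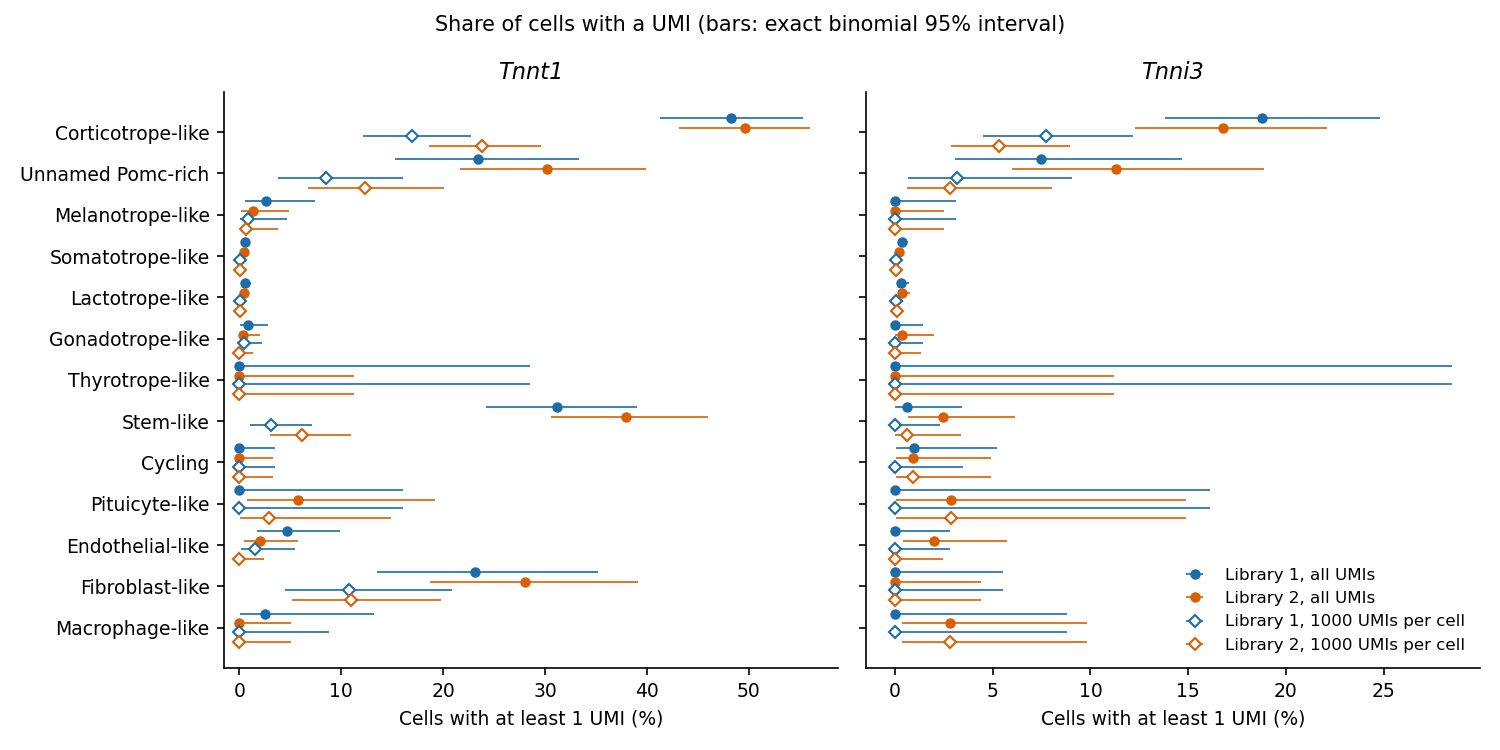
Share of cells with at least 1 UMI (percent) of Tnnt1 and Tnni3 by cell class, for each library with all UMIs (filled circles) and with each cell thinned to 1000 UMIs (open diamonds); bars are exact binomial 95% intervals. Corticotrope-like cells stand highest for both genes at either depth, and the Tnnt1 shares of stem-like cells drop from 31.2% and 38.0% to 3.12% and 6.13% on thinning.

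Within corticotropes the UMIs were uneven. Of the Tnnt1-positive cells, 31 and 40 had a single UMI, 45 and 53 had 2 to 4, and 24 and 28 had 5 or more, up to 23 and 29 in 1 cell. The 10% of corticotropes with most Tnnt1 held 49.5% and 55.8% of its UMIs. For Tnni3, 4 and 4 cells had 5 or more UMIs, up to 8 and 12, and the top 10% of cells held 77.9% and 81.7%. The largest Tnnt1 count of any Pomc cell, 76 UMIs, was in the unnamed Pomc-rich cluster.

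Across all cells used, corticotropes held 57.4% and 56.9% of the 563 and 771 Tnnt1 UMIs, and 64.2% and 63.7% of the 134 and 146 Tnni3 UMIs. With the unnamed Pomc-rich cluster the shares were 70.7% and 78.1% for Tnnt1 and 82.1% and 74.7% for Tnni3. Stem-like cells held a further 11.9% and 11.8% of the Tnnt1 UMIs.

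Both transcripts were found in some of the same corticotropes. In library 1, 23 cells had a UMI of each gene, 77 of Tnnt1 only, 16 of Tnni3 only and 91 of neither. In library 2 the counts were 31, 90, 10 and 113. Cells with both made up 11.1% (7.18 to 16.2) and 12.7% (8.80 to 17.5), and cells with either 56.0% and 53.7%. Tnni3 was seen in 23.0% of Tnnt1-positive and 15% of Tnnt1-negative corticotropes of library 1 (odds ratio 1.70). In library 2 the shares were 25.6% and 8.13% (odds ratio 3.89). Read the other way, 59.0% and 75.6% of Tnni3-positive cells also had a Tnnt1 UMI.

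Co-detection was also counted by depth. In each of 3 equal classes of depth, in both libraries, Tnni3 was seen more often with Tnnt1 than without: 25% against 14.6%, 28.2% against 23.3% and 15.2% against 8.33% from the shallowest to the deepest class of library 1. In library 2 the pairs were 23.5% against 6.25%, 28.9% against 8.33% and 23.8% against 10.3%. After thinning, 4 and 7 cells kept both transcripts, with odds ratios of 1.72 and 4.12. These are small counts. Co-detection of Tnnc1 was rare: 4 and 7 corticotropes had Tnnt1 and Tnnc1 together, and 2 and 4 had Tnni3 and Tnnc1.

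Taking all cells with at least 1% of UMIs from Pomc, whatever their cluster, 27 of 376 (7.18%) and 44 of 471 (9.34%) had both transcripts. This set includes 114 and 145 melanotropes, in which no cell had both. Of all 116 and 146 melanotrope-like cells, 3 and 2 had Tnnt1. In the unnamed Pomc-rich cluster 5 and 10 cells had both, and the odds ratios were 10.3 and 16.4. There the transcripts went with Pomc: cells with at least 1% Pomc showed Tnnt1 in 44.0% and 41.8% and Tnni3 in 14.0% and 17.9%, close to the corticotrope shares. Cells with less Pomc showed Tnnt1 in 0 of 44 (up to 6.82%) and 4 of 39 (10.3%), and Tnni3 in none. Of the cells in this cluster, 39.5% had a corticotrope-like cell as nearest neighbour on the authors' t-SNE map. The odds ratios of this cluster pool its cells with at least 1% Pomc and those with less. The part of this mixture, and of lactotrope RNA, in their height was not tested.

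**Figure D4:**
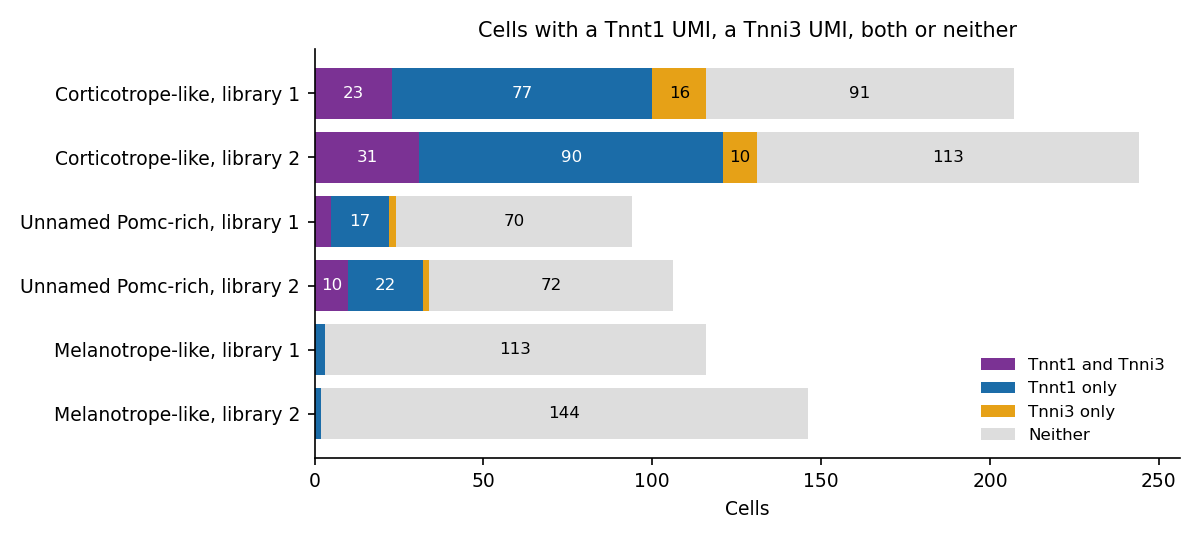
Number of cells with a UMI of both Tnnt1 and Tnni3, of 1 of them or of neither, in the 3 Pomc-rich clusters of each library. Corticotrope-like cells with both number 23 and 31, and no melanotrope-like cell has Tnni3.

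The genes around Tnnt1 and Tnni3 showed no such contrast between corticotropes and other cells at comparable levels. Of 9 annotated genes within 100 kb of Tnnt1, only Tnni3 and Syt5, a synaptotagmin of secretory vesicles, reached 20 CPM in corticotropes. Against the mean of 4 other hormone classes (somatotropes, lactotropes, gonadotropes and melanotropes), the level in corticotropes was 128-fold for Tnnt1, 207-fold for Tnni3 and 0.937-fold for Syt5 (37.7 against 40.2 CPM). Ppp1r12c, a myosin phosphatase subunit downstream of Tnnt1, had 19.2 against 18.1 CPM and Rdh13 11.2 against 9.09. Dnaaf3, which overlaps Tnni3, had 3.07 ± 1.27 (SD, n = 2) against 0.876 CPM, and reads in the overlap cannot be assigned with certainty. Gm15494, Gm15873 and Ptprh had no UMI in corticotropes and Eps8l1 had 4.19 CPM.

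**Figure D5:**
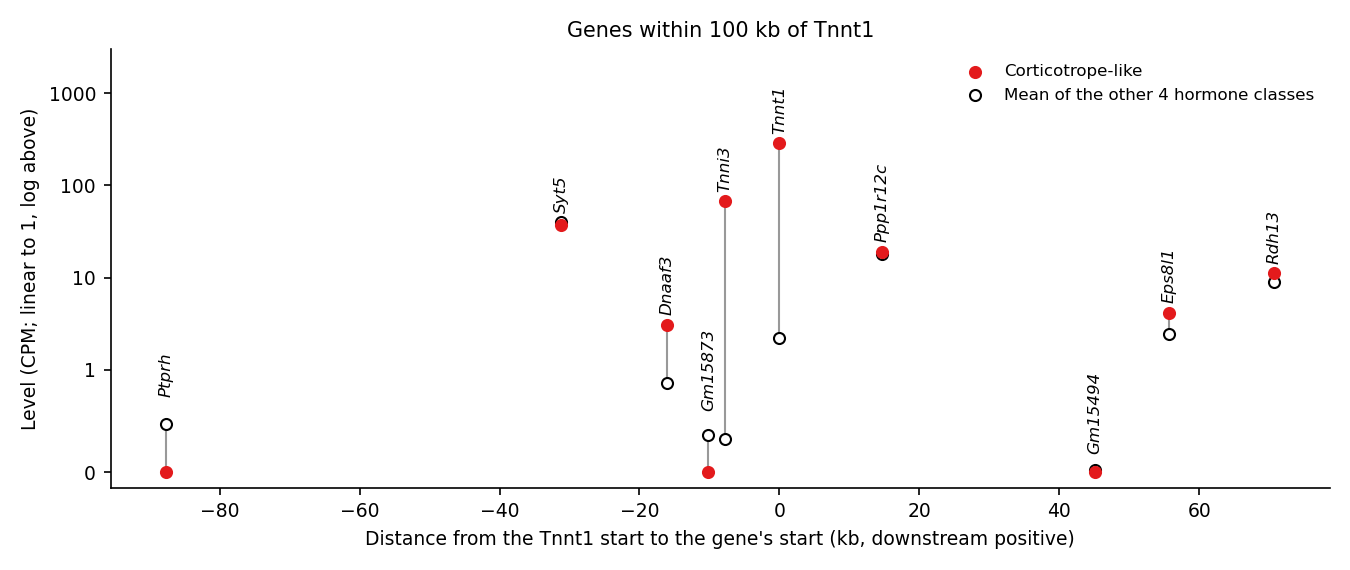
Level (CPM, axis linear up to 1 and logarithmic above) of the genes within 100 kb of Tnnt1 in corticotrope-like cells (filled) and as the mean of the other 4 hormone classes (open), against the distance of their starts from that of Tnnt1 in kb. Tnnt1 and Tnni3 are 128-fold and 207-fold apart between the groups, while Syt5, Ppp1r12c and Rdh13 lie close together.

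Other genes shared the pattern of each member. Likeness was Pearson's r of log2(CPM + 1) over 24 columns (12 classes in 2 libraries), as a description. It was taken among 4642 genes with at least 20 CPM in corticotropes, and the columns share libraries and depth. Among the closest to Tnnt1 were Smim5 (0.875), Vdac1, a mitochondrial outer membrane channel (0.802), Twist2, a mesenchymal bHLH factor (0.802), Crtc3, a coactivator of CREB (0.801), Sulf1 (0.759), Tiparp (0.756) and Col9a2 (0.754). Smim5 had 44.8 ± 6.07 CPM (SD, n = 2) in corticotropes, 18.5 in the unnamed Pomc-rich cluster, 14.1 in stem-like cells and 4.25 in melanotropes. Some of the others were not highest in corticotropes. Twist2 had 25.6 CPM and Crtc3 39.6 in fibroblast-like cells, against 20.8 and 33.5 in corticotropes. Sulf1 had 50.1 CPM in stem-like cells against 44.2 in corticotropes. Among the closest to Tnni3 were Gpc5, a glypican (0.909), Npb, the neuropeptide B precursor (0.889), Atp2a1, the calcium pump of fast skeletal muscle (0.835), Cplx3, a complexin of vesicle release (0.834), Doc2g (0.793), Sesn2 (0.789) and Rprml (0.772). Gpc5 had 49.5 ± 14.0 CPM (SD, n = 2) in corticotropes and none in melanotropes. Tnni3 ranked 35th for Tnnt1 and Tnnt1 49th for Tnni3 (r = 0.633), and they parted in fibroblast-like and stem-like cells.

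The rest of the contractile apparatus was then compared between corticotropes and the 4 other hormone classes, and between corticotropes and melanotropes. Counts summed per class and library were tested with the quasi-likelihood test of edgeR. Its p-values were adjusted by Benjamini and Hochberg's method at 0.05, over the 12237 genes of the fit. Calls were counted over 12160 genes, without markers and members. The p-values rest on 2 pools per class. Of these genes 28.1% were called against the other hormone classes (14.0% higher, 14.1% lower) and 19.8% against melanotropes (9.78% higher, 10.0% lower). Higher genes made up 49.7% of those called against the other hormone classes, and 63.0% when scaled by DESeq2's size factors, which move the median of all genes from -0.07 to 0.05 on the log2 scale. Only 2 of the 5 members, Tnnt1 and Tnni3, had enough counts to enter the fit. Tnni2, the only other troponin in it, was not called (log2 fold change 1.45 ± 1.01, adjusted p = 0.321 against the other hormone classes).

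Muscle-type sarcomere genes were mostly absent from corticotropes. Of 18 sarcomeric myosin genes and their binding proteins 13 had no UMI and 16 lay under 2 CPM, and the list summed to 11.1 and 9.41 CPM. Of 18 sarcomere structure genes 11 had no UMI, among them Acta1 and Actc1, the skeletal and cardiac actins, Neb (nebulin) and Des (desmin). Of the 2 tested, Myl4, an atrial light chain, was not called (adjusted p = 0.289 with edgeR and 0.339 with DESeq2 against the other hormone classes), and Myl2 had no UMI in the classes compared. With no filter on low counts edgeR called 2 others higher than in the other hormone classes. These were Myh7, the slow and cardiac heavy chain, with 4.91 against 1.34 CPM (adjusted p = 0.00682) and Myl1 with 2.67 against 1.18 (adjusted p = 0.00208). Mean Myl1 was 4.56 CPM in melanotropes and 5.30 in the unnamed Pomc-rich cluster, so it was not particular to corticotropes. Of 5 tested structure genes 2 were lower than in the other hormone classes, Actn2 and Nebl (10.4 against 39.0 CPM, log2 fold change -1.58 ± 0.26, adjusted p = 3.34e-07). Against melanotropes 1 was lower, Ttn, the giant spring protein titin, with 2.38 and 0.724 CPM in corticotropes and 38.2 and 31.3 in melanotropes (-4.50 ± 0.63, adjusted p = 8.17e-09). Myod1, Myog and Myf5, the skeletal muscle determination factors, and Mb (myoglobin), Ckmt2 and Pvalb had no UMI.

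Among the partners of troponin on the thin filament, tropomyosins were present. Of 7 tested genes for tropomyosins and thin filament ends 2 were higher and 1 was lower than in the other hormone classes, with a median log2 fold change of 0.36 beside -0.07 over all genes. Tpm2, the beta tropomyosin of skeletal muscle, had 21.4 and 41.3 CPM in corticotropes against a mean of 0.787 (5.34 ± 0.73, adjusted p = 0.000167), but 149 CPM in fibroblast-like cells. Fibroblast markers in corticotropes summed to 3.96 and 21 CPM; their part in the Tpm2 level was not tested. Tpm3, the widely expressed tropomyosin that is also the slow skeletal form, had 76.1 and 89.8 CPM against 54.1 (0.63 ± 0.12, adjusted p = 1.98e-05). Both were also higher than in melanotropes, Tpm2 by 5.66 ± 1.59 (adjusted p = 0.0282) and Tpm3 by 0.90 ± 0.19 (adjusted p = 0.000150). Tpm1 had 38.4 against 54.6 CPM (-0.39 ± 0.16, adjusted p = 0.0493), and that call was lost with DESeq2's size factors (edgeR, adjusted p = 0.205).

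Of 19 tested genes of smooth muscle and non-muscle contraction, 7 were higher and 0 lower than in the other hormone classes, and the others did not pass the test (median 0.43). Myl12a, a regulatory light chain of non-muscle myosin, had 173 and 188 CPM against 90.6 (1.04 ± 0.09, adjusted p = 1.77e-17). Actg1, the gamma cytoplasmic actin, had 1158 and 1331 CPM against 802 (0.70 ± 0.07, adjusted p = 2.68e-15). Actb, the beta cytoplasmic actin, had 1237 against 893 CPM (0.55 ± 0.15, adjusted p = 0.0133; 0.135 without the library block). Against melanotropes 7 were higher and 2 lower, the lower ones being Mylk and Cnn3, a calponin (61.4 against 155 CPM, -1.34 ± 0.16, adjusted p = 4.94e-11). Acta2, Actg2 and Cnn1, which mark differentiated smooth muscle, had no UMI in corticotropes.

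Genes that store and sense calcium changed in both directions, 5 higher and 4 lower of 16 tested against the other hormone classes (median 0.09) and 3 higher and 4 lower against melanotropes. Atp2a1 had 19.0 and 21.7 CPM in corticotropes, against 0.121 in somatotropes, 0.105 in lactotropes, 2.28 in gonadotropes and no UMI in melanotropes or fibroblast-like cells (adjusted p = 3.26e-18 and 3.52e-06 in the 2 comparisons). Its fitted fold change depends on the count added to the empty group and is not given. Atp2a2, the pump of cardiac and slow muscle that most cells use, was lower, 54.6 against 81.3 CPM (-0.50 ± 0.12, adjusted p = 0.000569). Itpr1, the inositol trisphosphate receptor that releases stored calcium, was higher, 61.8 against 39.0 CPM (0.88 ± 0.16, adjusted p = 2.87e-06). Calm3, a calmodulin gene, was higher by 0.64 ± 0.09 (adjusted p = 2.16e-09). S100a1, a calcium sensor of muscle, was lower by the edgeR fit (-0.34 ± 0.13, adjusted p = 0.0307); that call was lost with DESeq2 (adjusted p = 0.215) but stood against melanotropes (-1.18 ± 0.16, edgeR adjusted p = 2.40e-09). The partners of calcium pumps in muscle, Pln, Sln, Casq1 and Casq2, had no UMI in corticotropes.

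Of the transcription factors of muscle, 5 of 7 tested were higher than in the other hormone classes and 0 lower (median 0.60). Srf, the serum response factor that acts at CArG boxes and on many immediate early genes, had 46.0 and 39.1 CPM against 15.5 (1.56 ± 0.19, adjusted p = 3.71e-11), and 8.15 in melanotropes (2.36 ± 0.35, adjusted p = 4.29e-08). Mef2a, a factor of the MEF2 site, had 40.4 and 39.8 CPM against 26.2 (0.71 ± 0.17, adjusted p = 0.000699). Mef2d and Tead1 were also higher. Against melanotropes Srf was the 1 gene higher and Mef2c the 1 lower. Of 5 tested genes of muscle metabolism 1 (Pygm) was higher and 1 (Eno3, -1.05 ± 0.24, adjusted p = 0.00134) lower than in the other hormone classes.

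Immediate early genes stood much higher in corticotropes, 17 of 20 tested against the other hormone classes (median 1.68) and 16 of 20 against melanotropes (median 2.19), with 0 lower in both. Egr4 had 85.6 and 133 CPM against a mean of 4.12 (5.64 ± 0.43, adjusted p = 2.12e-05), Npas4, an activity-dependent factor, 353 and 429 against 46.4 (3.13 ± 0.13, adjusted p = 3.03e-11), and Atf3 477 and 543 against 74.5 (3.05 ± 0.09, adjusted p = 1.35e-43). All cells had the 4 h digestion, and its part in these levels was not tested. Of 9 tested genes of the corticotrope programme 3 were higher and 5 lower: Neurod1, a Pomc activator, by 4.6 ± 0.27 (adjusted p = 6.41e-21), Nr3c1, the glucocorticoid receptor, by 3.40 ± 0.14 (adjusted p = 1.41e-39) and Fkbp5 rose, and Chga, Chgb, Pcsk1, Cpe and Scg2, of the secretory granule, fell. Over all lists (156 genes, not all of them tested) 53 genes were called against the other hormone classes (40 higher) and 48 against melanotropes (34 higher). Immediate early genes were 17 of those 40 and 16 of those 34. Over all tested genes 28.1% and 19.8% were called.

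Corticotropes with a Tnnt1 UMI were last compared with those without one, summed per library into 100 and 107 cells and 121 and 123 cells. The split is a range of 1 transcript count and not a cell type. Median depth was 4447.5 against 4546 UMIs in library 1 and 4306 against 4182 in library 2. Cells with Tnnt1 had more detected genes in both, medians of 1893.5 against 1777 and 1844 against 1687, and the part of this in the split was not tested. Of 6079 genes 50 were called with edgeR (0.823%; 35 higher, 0.576%, and 15 lower, 0.247%), with 1 residual degree of freedom, so that the spread is borrowed from all genes. DESeq2 called 1 of them, Pomc, and without the library block 11 were called. At an unadjusted p under 0.05 there were 491. The edgeR adjustment ran over the 6081 genes of the fit, Tnnt1 and Tnni3 included. DESeq2 gave no adjusted p under 0.05 to Tnnt1, on which the split was made. A gene that DESeq2 left uncalled here may therefore still differ.

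Cells with Tnnt1 had less Pomc. Pomc made up a median of 3.66% of UMIs with Tnnt1 and 6.70% without in library 1, and 3.41% and 6.23% in library 2. Summed, it had 57141 against 103771 CPM and 53232 against 89238 CPM (log2 fold change -0.80 ± 0.09, adjusted p = 5.67e-14 with edgeR, 0.000422 with DESeq2). Within the middle of the depth range the difference was -1.14 (adjusted p = 1.45e-05). The 4 melanotrope markers other than Pomc and Tbx19 summed to 3.97 against 10.1 CPM in library 1 and 5.32 against 25.9 in library 2. The part of melanotrope RNA in the Pomc difference was not tested. Tnni3, left out of the calls, had 119 against 52.4 CPM and 140.0 against 25.9.

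Of the genes higher in Tnnt1-positive corticotropes, Neat1, a nuclear long RNA, had 65.5 against 10.1 CPM and 62.0 against 24.1 (1.86 ± 0.34, adjusted p = 3.45e-05). Cryab, a small heat shock protein of lens and muscle, had 125 against 30.3 and 65.6 against 37.1 (1.46 ± 0.28, adjusted p = 7.53e-05). Etnppl, Leng9, Avpi1, Cngb1, Maff and Serpinh1 followed with log2 fold changes from 0.90 to 1.63. Actb was the 1 of 10 tested smooth and non-muscle contraction genes called, with 1815 against 1228 and 1982 against 1169 CPM (0.66 ± 0.09, adjusted p = 2.27e-10). Of 5 tropomyosin, 10 calcium and 5 muscle transcription factor genes tested, 0 were called with edgeR or DESeq2. At an unadjusted p under 0.05 there were 2, Tpm2 (log2 fold change 0.65, edgeR adjusted p = 0.583) and Mef2d (0.77, edgeR adjusted p = 0.433). Of 19 immediate early genes 7 were higher, Fos, Fosb, Jun, Jund, Egr1, Atf3 and Btg2, by 0.36 to 0.54; with the library block left out, or with DESeq2, 0 of the 7 were called.

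The genes lower in Tnnt1-positive cells were Nmb, the neuromedin B precursor (27.8 against 92.8 and 8.86 against 51.9 CPM, -1.99 ± 0.34, adjusted p = 1.99e-06), Tgfbr3l, Znhit6, Lrrc41, Cga, Hmox1, Apoo and Lhb among those with the largest change. Cga, the subunit shared by the glycoprotein hormones, had 269.8 against 865 and 264 against 406 CPM (-1.20 ± 0.12, edgeR adjusted p = 1.45e-21). The difference was larger in library 1, and this p rests on a spread borrowed from all genes. Without the library block Cga was not called (edgeR adjusted p = 0.870), nor was it with DESeq2. Of the 15 lower genes 5 are markers of other hormone cells: Gh and Dlk1 of somatotropes, Lhb and Tgfbr3l of gonadotropes and Cga of thyrotropes. Summed somatotrope markers were 19124 against 38528 CPM in library 1 and 13318 against 14271 in library 2, and gonadotrope markers 83.3 against 216 and 79.8 against 158. Lactotrope markers went the other way in library 1 (9174 against 7052) and not in library 2 (3742 against 4391). The part of other cells' RNA in the split was not tested. Detection of single genes alongside Tnnt1 was weakly related throughout: over 6818 genes the highest phi coefficient was 0.22, for Apoe, and that of Tnni3, at rank 12, was 0.17, values that no reading rests on.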

How the data were processed

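Per the submitters' processing notes, the authors used Cell Ranger and STAR with mm10; no version of either is named. The deposited matrix gives raw UMI counts per gene and cell, and the deposited t-SNE coordinates are a score in arbitrary units. The number ending each barcode was taken as the pool. Members and lists were chosen with earlier results of these data known.

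Barcodes with at least 500 UMIs, 250 genes and at most 20% mitochondrial UMIs were kept (6505 and 7060), and the 7.6% with the highest doublet scores were removed. Cells were clustered on 86 markers (12 components, 15 neighbours, Leiden resolution 1) and named from at least 3 markers. Limits that leave mixed clusters unnamed were set after the data were seen. Counts were summed per class and library, for classes with 20 cells in each (thyrotropes fell short), and tested with edgeR 4.0.16 (TMM, filterByExpr, robust fit, library as block since every class comes from the same 2 pools; 11 residual degrees of freedom). The tests were checked on simulated data and missed part of the changes set there, so a gene not called may still differ. DESeq2 1.42.0, other scalings, filters, clusterings, depth and Pomc limits were alternatives. Fold changes against the other hormone classes use the mean of log levels; the CPM beside them are arithmetic means.

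Named genes were the members, up to 6 called genes per list by size with at least 20 CPM in the higher class, the 8 most like Tnnt1 or Tnni3, the 8 highest and lowest of the split, and genes within 100 kb. Other genes were named after their values were seen. A few genes that the rule names are not reported here.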

Additional observations from a re-analysis of the deposited data

How the results depend on the processing

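Depth limits what a share can show. Over 2 pools, no called gene that the text names changed sign under the alternatives run for it, whereas the median of all genes did. Against the other hormone classes 3229 to 3587 genes were called (3413 as reported), and 3300 without the library as replicate block; against melanotropes 2188 to 2432, and 2281 without that block. Other scaling moved the balance rather than the number: the median of all genes went from -0.07 to 0.05 with DESeq2's size factors and to 0.11 with totals without Gh, Prl and Pomc, and higher genes made up 63.0% and 69.1% of those called in place of 49.7%; with DESeq2 they were 63.8% and with clustering on variable genes 58.0%. With 1 library left out, 3404 to 3407 and 2404 to 2405 of the called genes and 50 to 50 in the split had the same sign, without a test. These genes were called from the same 2 libraries, so a shared sign was largely set by the calling and is no replication. Calls over the lists ran from 52 to 58 and from 47 to 50, and among the list genes named, Tpm1, S100a1 and Actb lost a call against the other hormone classes.

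The 50 genes of the Tnnt1 split became 1 with DESeq2, 11 without the replicate block and 14 in the middle of the depth range, 12 of them among the 50; the cause was not tested beyond the fewer cells of the last.

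The Tnnt1 level (287 CPM) was 187 CPM in cells with at least 3% Pomc, and 256 to 318 by library. The Tnni3 level (67.7 CPM) was 68.6 at Leiden resolution 0.5, 70.4 with variable genes, 57.9 with doublet calls kept, and 57.1, 59.6 and 50.5 in cells with at least 0.5%, 1% and 3% Pomc; by library it was 67.3 to 68.1. The thinned shares of 20.3% (16.9 to 23.8 by library) for Tnnt1 and 6.53% (5.33 to 7.73) for Tnni3 became 48.9% and 17.8% unthinned, and 26.0% and 8.37% when thinned outside Gh, Prl and Pomc. Cells with both (11.9%, 11.1 to 12.7 by library) became 13.2% with variable genes and 2.40% thinned. The cause of these moves was not tested, apart from the fewer UMIs that thinning leaves.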

Other observations

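Some further genes higher in Tnnt1-positive corticotropes were picked after their values were seen and belong to no list, so nothing is read from them as a group. Dnajb1, an Hsp40 protein, had 3265 against 1485 CPM in library 1 and 2203 against 1751 in library 2 (log2 fold change 0.73 ± 0.09, adjusted p = 4.02e-13 with edgeR). Hspb1, the small heat shock protein, had 4417 against 2638 and 2751 against 2444 (0.46 ± 0.09, adjusted p = 7.22e-05). Hspa8 had 3612 against 2624 and 3618 against 2702, and Hspa5, of the endoplasmic reticulum, 1464 against 1015 and 1487 against 1082. Ddit3, a transcription factor of the stress response, had 389 against 175 and 491 against 345 CPM (0.76 ± 0.12, adjusted p = 2.37e-07). With DESeq2 0 of these were called (adjusted p = 1 for each), nor was Tnnt1, on which the split was made. The difference in Dnajb1 and Hspb1 was larger in library 1 than in library 2. Without the library block edgeR still called Hspa8 and Hspa5, but not Dnajb1, Hspb1 or Ddit3 (adjusted p = 0.768, 0.923 and 0.905).

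The ratio of Tnnt1 to Tnni3 UMIs differed between cell classes. Fibroblast-like cells held 19 and 25 Tnnt1 UMIs and 0 Tnni3 UMIs, and stem-like cells 67 and 91 Tnnt1 UMIs with 1 and 4 of Tnni3, while corticotropes held 323 and 439 with 86 and 93. In stem-like cells the summed corticotrope markers were 254 and 2326 CPM, against 63948 and 56997 in corticotropes.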
